A study of Mus musculus with 9 samples.

Results

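The genes described are 7 transcription factor genes of the skeleton: the SOX genes Sox9, Sox5 and Sox6, the RUNX genes Runx1, Runx2 and Runx3, and Cbfb. They were chosen by name and found through their Ensembl IDs in GENCODE M21 (GRCm38), 7 of 53379 gene IDs in the count tables, and all 7 passed the filter on low counts. RNA was sequenced from whole knee joints of a mouse model of osteoarthritis, in which the anterior cruciate ligament of male C57BL/6 mice was cut (ACLT) at 8 weeks of age. A lentivirus was injected into the joint 1 week after surgery, and joints were taken 8 weeks later. The 3 groups were operated joints given the virus expressing PC2 (PC2), operated joints given the control virus expressing Luc (Luc), and joints without surgery (Non surgery). The sources used here do not state the age of the Non surgery mice, the number of mice per group or the cells that each virus reached.

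SOX9 starts and maintains the chondrocyte programme: it binds DNA through its HMG box and activates the genes of collagen II and aggrecan. SOX5 and SOX6 carry no activation domain of their own and help SOX9 at cartilage enhancers, while SOX6 is also known in skeletal muscle, where it represses slow fibre genes, and in red cell precursors. The RUNX proteins share the Runt domain and bind DNA as dimers with CBFB, the partner that does not touch DNA. RUNX2 is required for osteoblasts and drives chondrocyte hypertrophy, RUNX1 acts in blood stem cells and also in early chondrocytes, and RUNX3 acts in cytotoxic T cells and NK cells. In a joint these genes are thus read in cartilage, bone, marrow and muscle at once.

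The promoter sequences of the RUNX genes are shown because Runx1, Runx2 and Runx3 share a doubled RUNX site there and yet differed in how their transcripts changed. RefSeq windows of 300 bases (250 before and 50 after an annotated start, GRCm38.p6) matched 6 of the 7 genes, all but Sox9. The longest run of letters that the windows of the 3 genes share has 18 letters, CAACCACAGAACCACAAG, and holds the RUNX letters ACCACA at 2 places. Searched on both strands, it stood in 4 of 32851 windows (0.0122%). Those were 1 window each of Runx1, Runx2 and Runx3, and 1 of Gm16225, whose window overlaps that of Runx3 on the other strand. The run was taken from windows of the 3 RUNX genes, so its presence in them was fixed by that choice. In the lines below the capitals mark this run, read 5′ to 3′ on the strand of the gene.
Runx1 (chr16:92826025-92826054, minus strand): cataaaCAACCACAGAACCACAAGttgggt
Runx2 (chr17:44814583-44814612, minus strand): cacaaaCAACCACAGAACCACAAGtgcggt
Runx3 (chr4:135120503-135120532, plus strand): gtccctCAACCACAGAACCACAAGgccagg
The run began at base 27 after the start of Runx1 and base 22 after that of Runx2, and 136 bases before the start of Runx3. Gene-level counts cannot tell transcripts of this start from those of the other starts of these genes.

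Each library held 17835989 to 19004316 counts in genes. The 3 libraries of a group were technical repeats of 1 RNA mixture, so every p-value below is set against technical spread and says nothing of differences between mice. Pools also differ by mouse, and this cannot be told apart from the operation or the virus. All 6 defining markers of cartilage, bone and skeletal muscle had counts in every library. The summed level of the 6 chondrocyte markers was 5113 to 5164 CPM (read counts scaled to the library total) in PC2, 2986 to 3091 in Luc and 391.7 to 419.7 in Non surgery libraries. That of 6 skeletal muscle markers was 22047 to 22156 CPM in PC2, 19166 to 19451 in Luc and 37109 to 38822 in Non surgery libraries. Levels of single genes below are CPM scaled with TMM factors, which even out differences in RNA composition.

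Luc and Non surgery joints differ by the operation and the control virus together. Sox9, Sox5, Runx1, Runx2 and Cbfb rose, Sox6 fell, and Runx3 did not pass. The sizes ran from a 3.57-fold rise of Sox9 to a fall of Sox6 to 0.602 of its Non surgery level. So 6 of 7 genes were called at an adjusted p under 0.05, where 58.8% of all 17478 genes tested were called, and 2 of 7 differed at least 2-fold, against 15.7% of all genes. For 6 of 7 genes no Luc library fell within the Non surgery range, which was so for 62.9% of all genes. By direction, 5 of 7 were called higher, against 31.1% of all genes, and 1 of 7 lower, against 27.7%. The median log2 fold change of the 7 genes was 0.90, and that of all genes 0.025.

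**Figure D1:**
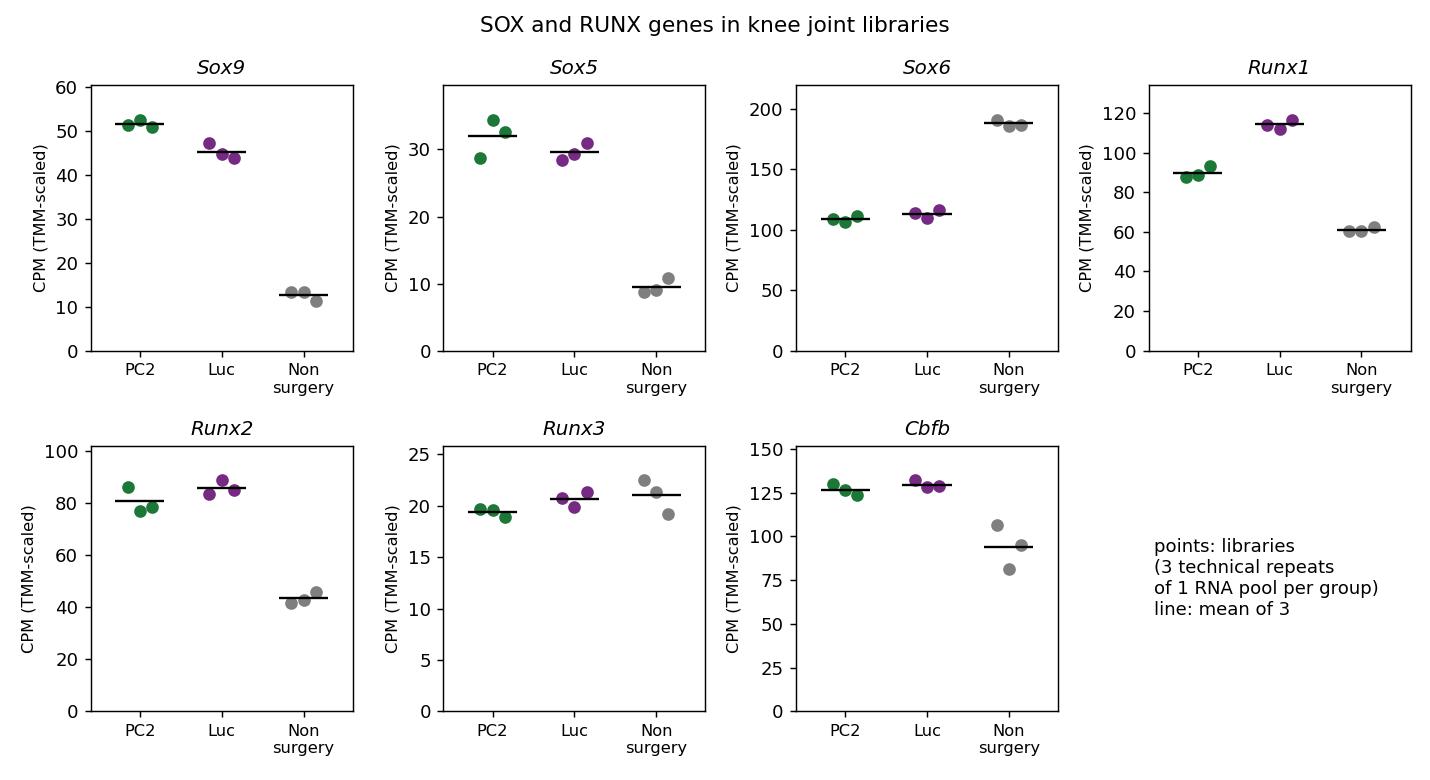
Normalised level (CPM, TMM-scaled, vertical axes from 0) of each gene in the 9 libraries, with PC2, Luc and Non surgery from left to right; points are libraries and lines are means of 3. Sox9 and Sox5 sat at 28.4 to 52.5 CPM in operated joints and at 8.75 to 13.3 CPM in Non surgery, Sox6 was highest in Non surgery, and Runx1 was highest in Luc.

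Sox9 (ENSMUSG00000000567, chromosome 11, 112782224 to 112787760) had 51.3, 52.5 and 50.9 CPM in PC2 libraries, 47.2, 44.6 and 43.7 CPM in Luc libraries and 13.2, 13.3 and 11.3 CPM in Non surgery libraries. The 3 groups did not overlap, and Non surgery libraries stood far below the others. The log2 fold change of Luc against Non surgery was 1.84 ± 0.063 (SE, adjusted p = 1.65e-13). In bulk tissue, more cells that express a gene and more RNA of it per cell cannot be told apart. Summed chondrocyte markers rose in the same libraries, and so did summed osteoblast, synovial fibroblast, osteoclast and endothelial markers. Whether the share of any of these cells in the joint set the level of Sox9 was not tested. The ratio of Sox9 to Col2a1, its best known target, was lower in operated joints: its log2 was -6.25 ± 0.019 in PC2, -5.65 ± 0.082 in Luc and -4.12 ± 0.030 in Non surgery libraries (SD, n = 3). Against Acan, the aggrecan gene, the log2 ratio was -3.42 ± 0.029 in PC2, -3.14 ± 0.074 in Luc and -3.65 ± 0.14 in Non surgery libraries. Col2a1 thus changed more than Sox9, and Acan less, between Luc and Non surgery joints.

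Sox5 (ENSMUSG00000041540, chromosome 6, 143828425 to 144781977) followed Sox9 at a lower level. It had 28.8, 34.5 and 32.6 CPM in PC2, 28.4, 29.4 and 30.9 CPM in Luc, and 8.75, 9.09 and 10.8 CPM in Non surgery libraries. PC2 and Luc libraries overlapped, and both lay above Non surgery. Luc against Non surgery gave 1.63 ± 0.090 (SE, adjusted p = 8.44e-11), a 3.10-fold rise. The log2 ratio of Sox9 to Sox5 counts was 0.69 ± 0.12 in PC2, 0.61 ± 0.12 in Luc and 0.41 ± 0.30 in Non surgery libraries, and Luc differed from Non surgery by 0.21, less than the SD of the Non surgery libraries. Of the exon bases of Sox5, 9.25% are shared with the antisense gene Sox5os1, which had 0 counts in all 9 libraries.

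Sox6 (ENSMUSG00000051910, chromosome 7, 115470872 to 116038796) went the other way. It had 109, 106 and 111 CPM in PC2, 114, 109.6 and 116 CPM in Luc, and 191, 186 and 187 CPM in Non surgery libraries. PC2 and Luc libraries overlapped, and all 6 lay below Non surgery. Luc against Non surgery gave -0.73 ± 0.036 (SE, adjusted p = 2.06e-11). The fall went along with skeletal muscle and red cell genes, in a comparison where 27.7% of all genes were called lower. All 12 genes of the fast muscle list, all 10 of the slow muscle list and all 12 of the erythroid list were called lower. Their median log2 fold changes were -1.2, -3.24 and -0.66. All 6 neutrophil markers were called lower there too. In PC2 against Luc joints 9 fast muscle, 5 slow muscle and 3 erythroid genes rose, and 1, 1 and 4 fell. Of all genes, 16.1% were called higher and 18.6% lower in that comparison, and Sox6 did not pass, at -0.056. Acta1, the skeletal muscle actin, was 4759 ± 24.0 CPM in Luc and 11021 ± 360 CPM in Non surgery libraries. The log2 ratio of Sox6 to Acta1 was -5.59 ± 0.032 in PC2, -5.39 ± 0.041 in Luc and -5.87 ± 0.063 in Non surgery libraries, so Sox6 fell less than Acta1. What part the smaller muscle and red cell signal had in the level of Sox6 was not tested.

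Because the genes moved apart, the mix of the 3 SOX transcripts changed. Levels of different genes were set side by side per kilobase of exon, with the exons of all annotated transcripts joined. That length is 4135 bases for Sox9 (1 transcript), 14376 for Sox5 (14) and 14832 for Sox6 (16). Shares and sums rest on it, and in plain CPM Sox6 stood above Sox9 in every group. On this scale Sox9 made up 56.6% ± 0.76 of the 3 in PC2 and 53.0% ± 1.39 in Luc libraries (SD, n = 3). In Non surgery libraries its share was 18.6% ± 1.44. Sox6 made up 33.3% ± 0.98 in PC2, 37.0% ± 0.90 in Luc and 77.3% ± 0.95 in Non surgery libraries. Sox5 made up 10.1% ± 0.80 in PC2, 9.98% ± 0.56 in Luc and 4.06% ± 0.55 in Non surgery libraries. The shares of Sox9 and Sox6 did not overlap between any 2 groups. An exact two-sided permutation test gave p = 0.10 for each of these differences of Sox9 and Sox6, the smallest that 3 against 3 libraries allow, and 0.112 after Benjamini-Hochberg adjustment over 18 such tests of SOX and RUNX shares. The sum of the 3 genes moved less than their mix, with 22.0 ± 0.26 CPM per kb in PC2, 20.6 ± 0.43 in Luc and 16.4 ± 0.31 in Non surgery libraries.

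**Figure D2:**
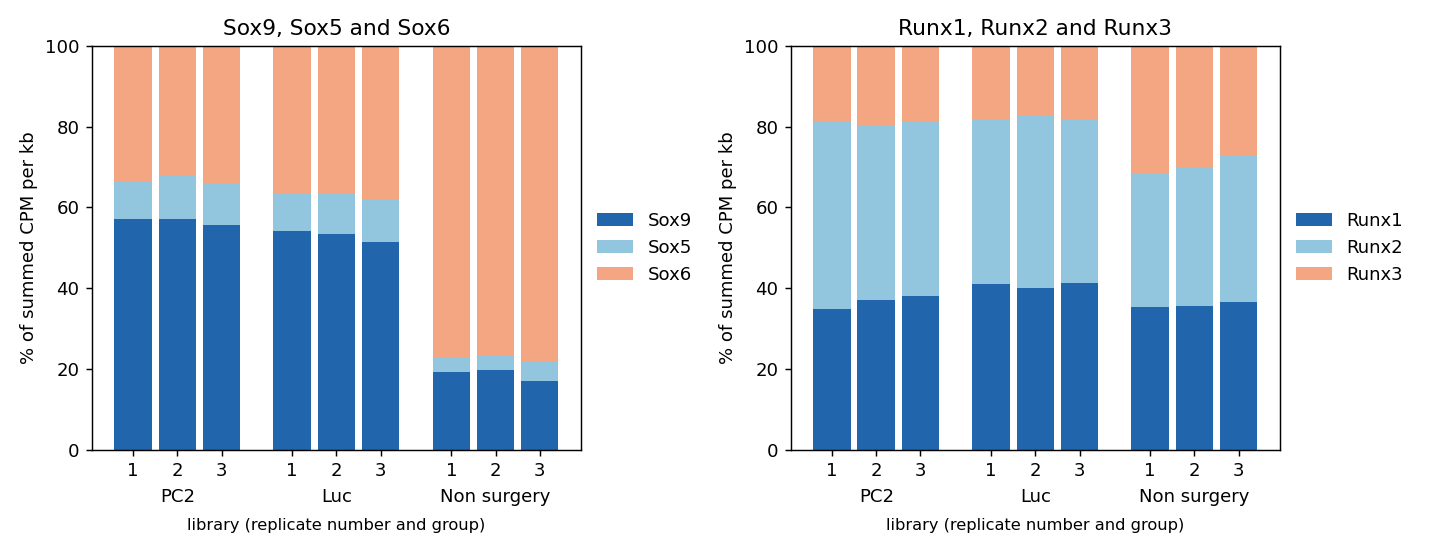
Share of each gene (% of the CPM per kb summed over 3 genes) in each library, for Sox9, Sox5 and Sox6 (left) and Runx1, Runx2 and Runx3 (right); bars are the libraries of PC2, Luc and Non surgery. Sox9 took 51.5 to 57.0% in operated joints and 17.0 to 19.7% in Non surgery, and Runx3 took 17.1 to 19.6% in operated joints and 27.0 to 31.6% in Non surgery.

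Runx1 (ENSMUSG00000022952, chromosome 16, 92601466 to 92826149) was highest in Luc joints. It had 87.6, 88.9 and 93.1 CPM in PC2, 114, 112 and 117 CPM in Luc, and 60.4, 60.4 and 62.3 CPM in Non surgery libraries. The 3 groups did not overlap, with PC2 between the other two. Luc against Non surgery gave 0.90 ± 0.040 (SE, adjusted p = 3.88e-12), a 1.87-fold rise. Of 16 haematopoietic regulators 2 were called higher, 11 lower and 3 not, where 31.1% of all genes were called higher and 27.7% lower. With scaling by library size only, 4 were called higher and 8 lower, so the number of falls depends on the scaling. With TMM their median was -0.25, and the largest changes were those of the stem cell factors Tal1 (-0.83), Meis1 (-0.64) and Gata2 (-0.62) and of Erg (0.48). In PC2 against Luc joints, where Runx1 fell, 5 of the 16 were called higher, 6 lower and 5 not (median 0.039). Of all genes, 16.1% were called higher and 18.6% lower there. The largest changes of the list were those of Cebpa (0.52) and Ikzf1 (-0.41). Spi1, the macrophage and granulocyte factor PU.1, had 111 ± 3.30 CPM in Luc and 117 ± 6.62 CPM in Non surgery libraries and did not pass (adjusted p = 0.156). Summed endothelial markers had the same order as Runx1, with 348 to 358 CPM in PC2, 442 to 453 in Luc and 297 to 314 in Non surgery libraries. Summed osteoclast markers did too, with 2377 to 2401 CPM in PC2, 2811 to 2838 in Luc and 1183 to 1266 in Non surgery libraries. Both sets are named for this order, and marrow sets differed. Neutrophil markers summed to 7244 to 7309 CPM in PC2, 6624 to 6931 in Luc and 7749 to 8002 in Non surgery libraries. Erythroid markers summed to 2577 to 2621 CPM in PC2, 2814 to 2867 in Luc and 4142 to 4321 in Non surgery libraries. All 6 markers of each of these marrow sets were called lower in Luc against Non surgery joints. All 6 endothelial markers were called higher in Luc against Non surgery joints and lower in PC2 against Luc joints. In PC2 against Non surgery joints 3 were higher and 1 lower. Of the 6 osteoclast markers, 5 were called higher and 1 lower in each operated group against Non surgery. In PC2 against Luc joints 3 were lower and 0 higher. Of all genes, 18.6% were called lower in PC2 against Luc joints and 31.5% higher in PC2 against Non surgery joints. The part of these markers in the level of Runx1 was not tested.

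The antisense gene Gm26626, which shares 106 exon bases with Runx1, had 11, 8 and 15 counts in PC2, 32, 31 and 29 counts in Luc, and 8, 5 and 5 counts in Non surgery libraries. It was thus highest in Luc, like Runx1. The sources used here do not state whether the counting used strand, so reads of this pair cannot be told apart. Runx1 had 1008 to 2192 counts per library.

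Runx2 (ENSMUSG00000039153, chromosome 17, 44495987 to 44814797) had 86.1, 77.0 and 78.4 CPM in PC2, 83.4, 88.6 and 84.9 CPM in Luc, and 41.5, 42.6 and 45.9 CPM in Non surgery libraries. PC2 and Luc libraries overlapped, and both lay above Non surgery. Luc against Non surgery gave 0.98 ± 0.052 (SE, adjusted p = 5.52e-11), a 1.98-fold rise. Summed osteoblast markers stood at 16608 to 16892 CPM in PC2, 13428 to 14141 in Luc and 3282 to 3621 in Non surgery libraries, and their part in the level of Runx2 was not tested. The log2 ratio of Runx2 to Ibsp, the bone sialoprotein gene, was lower in operated joints, with -4.00 ± 0.090 in PC2, -3.97 ± 0.064 in Luc and -3.31 ± 0.11 in Non surgery libraries. The antisense genes Runx2os1 and Runx2os2 had 1 to 17 counts per library, and Runx2os3 had 0.

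Runx3 (ENSMUSG00000070691, chromosome 4, 135120652 to 135177990) did not pass in any of the 3 comparisons. It had 19.7, 19.6 and 18.9 CPM in PC2, 20.8, 19.9 and 21.4 CPM in Luc, and 22.5, 21.3 and 19.2 CPM in Non surgery libraries. Luc and Non surgery libraries overlapped. The log2 fold change was -0.022 with a 95% interval of -0.17 to 0.13 (adjusted p = 0.813), so a change as large as that of Runx1 or Runx2 lay outside the interval. With scaling by library size only, its value had the other sign, at 0.14, and did not pass either. The 6 T cell markers summed to 31.7 to 34.0 CPM in PC2, 23.0 to 25.0 in Luc and 45.2 to 48.3 in Non surgery libraries. Cd4 was the largest part of this sum, at 20.9 CPM in PC2, 11.1 in Luc and 34.2 in Non surgery libraries. These Cd4 levels are TMM-scaled, while the sum is scaled to library totals. Cd4 was the 1 marker called higher in PC2 against Luc (0.92), and 2 were called lower there, Cd3g (-0.56) and Cd8a (-0.52, chosen after its values were seen). The part of these markers in the level of Runx3 was not tested. Of the T and NK cell genes 8 of 16 were called in Luc against Non surgery joints, where 58.8% of all genes were called. By direction 1 of 16 rose and 7 of 16 fell, where 31.1% of all genes were called higher and 27.7% lower. With scaling by library size only, 2 were called higher and 5 lower. The rise was in the granzyme Gzma (1.29), and Cd4 (-1.63), the CD8 chain gene Cd8b1 (-1.12) and the T cell receptor complex gene Cd3e (-0.71) had the largest falls.

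Cbfb (ENSMUSG00000031885, chromosome 8, 105170674 to 105217989) had 129.6, 127 and 124 CPM in PC2, 132, 128 and 129 CPM in Luc, and 106, 81.4 and 94.9 CPM in Non surgery libraries. Operated joints lay above Non surgery, whose libraries spread more than those of the other groups. Luc against Non surgery gave 0.46 ± 0.066 (SE, adjusted p = 1.42e-05), a 1.38-fold rise and less than those of Runx1 and Runx2. Per kilobase of exon Cbfb exceeded the sum of the 3 RUNX genes in every group: 36.4 ± 0.87 against 20.5 ± 0.48 CPM per kb in PC2, 37.2 ± 0.61 against 23.3 ± 0.26 in Luc, and 27.1 ± 3.59 against 14.2 ± 0.063 in Non surgery libraries. This rests on joined exon lengths of 3480 bases for Cbfb, 12025 for Runx1, 8837 for Runx2 and 5003 for Runx3.

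Within the RUNX genes, Runx1 made up 36.6% ± 1.63 in PC2, 40.7% ± 0.66 in Luc and 35.8% ± 0.56 in Non surgery libraries (per kilobase, SD, n = 3). Runx2 made up 44.5% ± 1.72 in PC2, 41.5% ± 1.24 in Luc and 34.6% ± 1.79 in Non surgery libraries. Runx3 made up 19% ± 0.53 in PC2, 17.7% ± 0.58 in Luc and 29.6% ± 2.35 in Non surgery libraries. The share of Runx3 was smaller in every operated library than in Non surgery libraries, while its own level did not pass the test. The exact test gave p = 0.10 for each of these differences except that of Runx1 in PC2 against Non surgery (p = 0.60).

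The order of the 7 genes per kilobase of exon differed between operated and Non surgery joints. In PC2 libraries it was Cbfb (36.4), Sox9 (12.5), Runx2 (9.11), Runx1 (7.48), Sox6 (7.34), Runx3 (3.88) and Sox5 (2.22), and Runx1 and Sox6 overlapped. In Luc libraries it was Cbfb (37.2), Sox9 (10.9), Runx2 (9.69), Runx1 (9.50), Sox6 (7.63), Runx3 (4.14) and Sox5 (2.06), and Runx2 and Runx1 overlapped. In Non surgery libraries it was Cbfb (27.1 CPM per kb), Sox6 (12.7), Runx1 (5.08), Runx2 (4.90), Runx3 (4.20), Sox9 (3.05) and Sox5 (0.664). Among neighbours in this order, Runx1 and Runx2 overlapped. Sox9 stood at rank 2 in both operated groups and at rank 6 in Non surgery. Ranks between genes rest on the joined exon lengths.

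PC2 and Luc joints were both operated and differ by the gene that the virus carried. This comparison shares the Luc libraries with the one above. Runx1 fell and Sox9 rose, both by small factors, and Sox5, Sox6, Runx2, Runx3 and Cbfb did not pass. So 2 of 7 genes were called, where 34.7% of all genes were called, and 0 of 7 differed at least 2-fold, against 3.31% of all genes. Runx1 fell to 89.9 ± 2.85 CPM in PC2, against 114 ± 2.28 CPM in Luc libraries (SD, n = 3), and the log2 fold change was -0.35 ± 0.038 (SE, edgeR, adjusted p = 3.47e-06), with groups that did not overlap. Sox9 was 51.6 ± 0.85 CPM in PC2 and 45.2 ± 1.81 CPM in Luc libraries, which differ by 0.19 ± 0.053 on the log2 scale (adjusted p = 0.0108). Without Luc replicate 3 this call ended, at 0.17 and an adjusted p of 0.0535.

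The 95% intervals of the other 5 genes all included 0. On the log2 scale they ran from -0.051 to 0.28 for Sox5, -0.13 to 0.022 for Sox6, -0.20 to 0.017 for Runx2, -0.24 to 0.057 for Runx3 and -0.17 to 0.11 for Cbfb. The libraries did not overlap between PC2 and Luc for Sox9, Runx1 and Runx3, or 3 of 7 genes, and for 48% of all genes, and Runx3 was not called. Summed chondrocyte markers were higher in PC2 libraries, while summed endothelial and osteoclast markers were lower, as given above. Summed adipocyte markers were also higher, at 330 to 338 CPM in PC2 and 175 to 191 in Luc libraries. So were summed osteoblast, skeletal muscle, neutrophil, T cell, Schwann and synovial fibroblast markers, while summed erythroid markers were lower. Their part in the changes of Sox9 and Runx1 was not tested.

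The comparison of PC2 with Non surgery joints shares libraries with both others. Sox9, Sox5, Runx1, Runx2 and Cbfb rose and Sox6 fell, so 6 of 7 genes were called, where 62.7% of all genes were called. The libraries did not overlap for 6 of 7 genes either, and for 66% of all genes. Sox9 rose 4.08-fold (2.03 ± 0.063 SE, adjusted p = 4.03e-14) and Sox5 3.35-fold (1.74 ± 0.089, adjusted p = 3.19e-11). These were the 2 genes past 2-fold, against 16.4% of all genes. Sox6 had -0.79 ± 0.036, Runx1 0.56 ± 0.040, Runx2 0.89 ± 0.053 and Cbfb 0.43 ± 0.066, all called. Runx3 had -0.11 ± 0.071 (adjusted p = 0.174) and passed without Non surgery replicate 3, at -0.18 and an adjusted p of 0.0492.

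**Figure D3:**
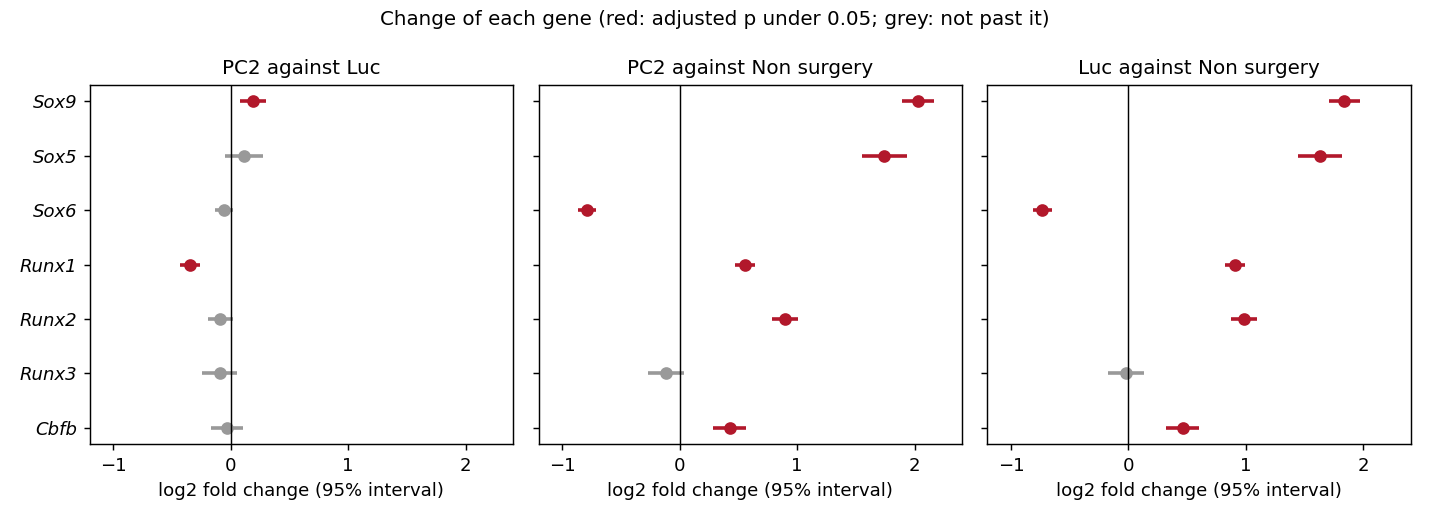
Log2 fold change of each gene (points) with its 95% interval (lines) in the 3 comparisons; red marks an adjusted p under 0.05 and grey one that did not pass. Against Non surgery 6 of 7 genes passed in each operated group, and between PC2 and Luc only Sox9 (0.19) and Runx1 (-0.35) passed.

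Cartilage matrix genes, many of them targets of SOX9, were mostly higher in operated joints. In Luc against Non surgery joints 16 of 17 tested rose and 1 fell, where 31.1% of all genes were called higher and 27.7% lower. The median of the list was 2.30 on the log2 scale, against 1.84 for Sox9, and single members such as Acan (1.34), Col11a2 (1.74) and Chad (1.76) lay below Sox9 (these 3 chosen after their values were seen). The largest rises were those of the collagen IX gene Col9a1 (4.08), Col2a1 (3.37), the proteoglycan Epyc (3.22) and the matrilin Matn4 (3.14). Epyc was low, at 5.55 ± 0.71 CPM in Luc and 0.59 ± 0.36 CPM in Non surgery libraries. In PC2 against Luc joints 16 rose, 0 fell and Matn4 did not pass (median 0.85). Of all genes, 16.1% were called higher and 18.6% lower in that comparison. The leading genes of the list were Col9a1 (1.58), Col9a3 (1.49), Ucma (1.36), a small secreted protein of resting cartilage, and Col9a2 (1.21). Matn1, another matrilin, did not follow the others: it was 2.21 ± 0.20 CPM in PC2, 1.0 ± 0.15 in Luc and 3.29 ± 0.33 in Non surgery libraries, the 1 fall against Non surgery (-1.71, chosen after its values were seen). The list's 18th gene, Mia, had 0 to 5 counts and was not tested.

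Genes of hypertrophic cartilage and bone, among them targets and partners of RUNX2, were all higher in operated joints. In Luc against Non surgery joints 18 of 18 rose, with a median of 1.59, where 31.1% of all genes were called higher. Col10a1, the collagen of hypertrophic cartilage, led with 3.0, before the channel gene Panx3 (2.63), the homeobox gene Dlx3 (2.55) and the collagenase Mmp13 (2.29). In PC2 against Luc joints 16.1% of all genes were called higher and 18.6% lower. Of this list 12 rose, 5 fell and 1 did not pass, while Runx2 itself did not pass. The falls were in the osteocyte gene Dmp1 (-0.73), the osteoclast-inducing cytokine Tnfsf11 (-0.71), Spp1 (-0.62), Mmp13 (-0.33) and Phex, and the largest rises were those of Dlx5 (0.63) and Ihh (0.63). Spp1, Mmp13 and Phex were chosen after their values were seen.

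RUNX letters in the promoter windows of this list are shown because the genes that carry them parted in PC2 against Luc joints. The list as a whole parted there too, with 12 rises and 5 falls. ACCACA or its reverse complement TGTGGT stood in the windows of 4 of the 10 genes of the list with a window (4 of 13 windows, 30.8%), and in 16.8% of all windows. Other lists varied, with 5 of 13 windows of T and NK cell genes (38.5%) and 0 of 24 of RUNX cofactors and regulators. Capitals mark these letters, read 5′ to 3′ on the strand of the gene.
Mmp13 (chr9:7272384-7272413, plus strand): attctgccacaaACCACActtaggaagaaa
Spp1 (chr5:104434971-104435000, plus strand): tttttttttttaACCACAaaaccagaggag
Dmp1 (chr5:104202441-104202470, plus strand): agtcatttgagaACCACAagagctttttag
Bglap (chr3:88384581-88384610, minus strand): ccgcaatcacctACCACAgcatcctttggg
The letters lay 118, 128, 164 and 132 bases before the annotated starts, in the order of the lines. Mmp13, Spp1 and Dmp1 fell in PC2 against Luc joints, and Bglap, the osteocalcin gene, rose by 0.49, to 119 ± 5.53 CPM in PC2, against 84.7 ± 3.93 CPM in Luc libraries. All 4 rose in Luc against Non surgery joints. A match describes the letters and does not show binding, and a link between the letters and these changes was not tested.

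The SOX letters ACAAT, on either strand, stood in 3 of 17 windows of the cartilage matrix list (17.6%) and in 31% of all windows. They stood in 8 of 13 windows of the slow muscle list (61.5%), genes of slow fibres that SOX6 represses, which also holds Myh2, the myosin of fast oxidative fibres. Other lists varied, with 4 of 8 windows of erythroid genes (50%) and 5 of 13 of hypertrophic cartilage and bone genes (38.5%). Fast muscle genes had them in 2 of 9 windows (22.2%). The longer letters ACAATGG stood in 3.66% of all windows and, among the 6 genes with a window, in that of Sox5 alone, 154 bases before its start. Capitals mark them there.
Sox5 (chr6:143947242-143947271, minus strand): actgaagagacACAATGGttgtgaatactt
The 10 genes of the slow muscle list were lower in Luc against Non surgery joints, as was Sox6, where 27.7% of all genes were called lower. With scaling by library size only, 9 of the 10 were called lower. The largest falls were those of the slow myosin Myh7 (-5.16), Myh2 (-3.70), the troponin Tnnc1 (-3.66) and the myosin light chain Myl3 (-3.64). In PC2 against Luc joints 16.1% of all genes were called higher and 18.6% lower. Of the 10 genes 5 rose and 1 fell, Myl3 (-0.43), while Sox6 did not pass. The largest rise was that of Myh2 (1.13), and those of slow fibre genes were Tnnc1 (0.82), Myl2 (0.72), Myh7 (0.42) and Tnnt1 (0.35), the last 2 chosen after their values were seen.

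Genes that act on SOX9 or carry growth plate signals rose with it: 18 of 19 in Luc against Non surgery joints, with a median of 1.37. Of all genes, 31.1% were called higher there and 27.7% lower. Barx1, a homeobox gene of joint and stomach development, rose by 3.08, the hedgehog mediator Gli1 by 2.10, Trps1 by 1.85 and Pth1r, the receptor of the hormone that holds chondrocytes back from hypertrophy, by 1.83. Barx1 had few counts, with 81, 111 and 95 in Luc and 10, 11 and 9 in Non surgery libraries. The 1 fall was in Zbtb20 (-0.18, chosen after its values were seen), and with scaling by library size only 0 genes of the list were called lower. In PC2 against Luc joints 6 rose, 4 fell and 9 did not pass, where 16.1% of all genes were called higher and 18.6% lower. Of the list, Fgfr3 was at 0.63, Ihh at 0.63, Nkx3-2 at 0.62 and the BMP receptor gene Bmpr1b at -0.89.

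Cofactors and regulators of the RUNX proteins moved less uniformly. In Luc against Non surgery joints 31.1% of all genes were called higher and 27.7% lower. Of this list 12 of 21 tested rose, 3 fell and 6 did not pass (median 0.26). Tle2 (1.44), a co-repressor, the Hippo pathway coactivator Wwtr1 (1.32), the RUNX2 inhibitor Twist1 (1.21) and the zinc finger gene Zfp521 (1.10) had the largest rises. In PC2 against Luc joints 3 rose, 6 fell and 12 did not pass, and of all genes 16.1% were called higher and 18.6% lower there. Tle2 (0.40), Twist1 (0.35) and Tle1 (0.32) rose, and the acetyltransferase gene Kat6a had the largest fall (-0.32).

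Among the other 17 SOX genes, 9 passed the filter on low counts and 8 had at most 3 counts in a library. In Luc against Non surgery joints 31.1% of all genes were called higher and 27.7% lower. Of the 9 SOX genes 6 rose, 1 fell and 2 did not pass. Sox4, a gene of progenitor cells, was 15.9 ± 0.35 CPM in Luc and 5.47 ± 1.13 CPM in Non surgery libraries, and both this gene and Sox8, the close relative of Sox9, rose. Sox8 was 2.87 ± 0.27 CPM in Luc and 1.09 ± 0.17 CPM in Non surgery libraries. Sox11 had 8 to 13 counts in Luc and 1 to 6 in Non surgery libraries (1.75, adjusted p = 0.0135), and Sox7, an endothelial gene, rose by 1.21, while Sox17, also endothelial, had -0.62 (chosen after its values were seen). In PC2 against Luc joints Sox10 (0.79), a Schwann cell gene, Sox8 (0.75) and Sox17 (0.33) rose and 0 fell. Of all genes, 16.1% were called higher there and 18.6% lower. Sox8 was 4.85 ± 0.55 CPM in PC2 libraries, and whether it changed more than Sox9 was not tested.

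**Figure D4:**
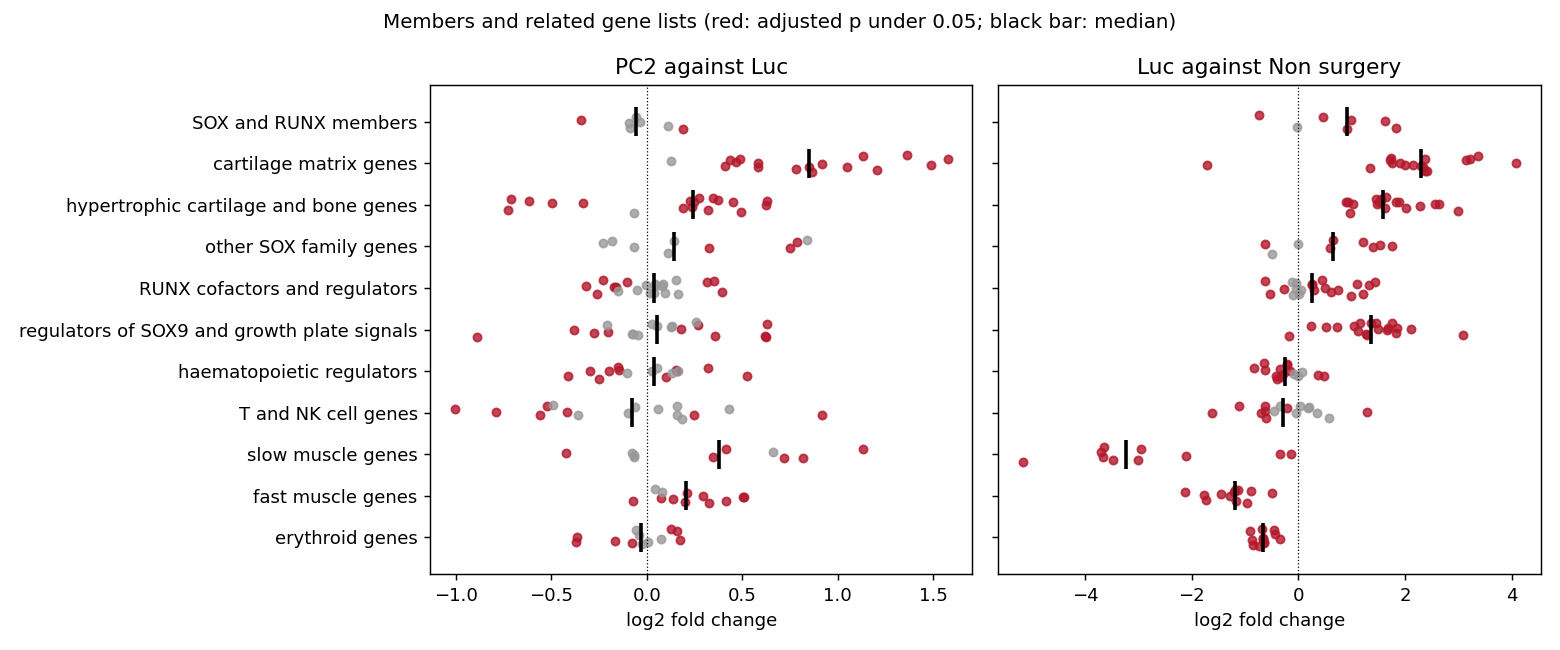
Log2 fold change of each gene tested (points; red where the adjusted p was under 0.05, grey otherwise) and the median (black bar) for the 7 genes and 10 related lists, in PC2 against Luc (left) and Luc against Non surgery (right), on axes of different range. The 7 genes had medians of -0.056 and 0.90, cartilage matrix genes 0.85 and 2.30, and slow muscle genes 0.38 and -3.24.

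For each gene the most similar genes were taken by the root mean square difference of log2 CPM, centred on the mean over the 9 libraries, among 11611 genes with a mean of at least 5 CPM. Sox9 was closest to the type I collagen gene Col1a2 (0.068), Pth1r (0.068) and Fkbp7 (0.074), and 163 genes lay within 0.2 of it. Sox5 was closest to Cpxm1 (0.092), the imprinted RNA Meg3 (0.095) and Klhl13 (0.096). Sox6 was closest to Asb1 (0.023), the mitochondrial chaperone gene Hspa9 (0.031) and the kinase gene Rps6ka2 (0.034), with 1385 genes within 0.2. Runx1 was closest to the MHC class I gene H2-K1 (0.052), Sesn3 (0.054) and the AP-1 gene Fosl2 (0.055), all highest in Luc joints. Runx2 was closest to Eps8 (0.029), Ptprk (0.058) and the chemokine gene Cx3cl1 (0.067). Runx3 was closest to Nup107, Efl1 and L3mbtl3 (0.035 to 0.040) among 5821 genes within 0.2, and Cbfb to Cmpk1, Man1a and Plekha1 (0.042 to 0.057) among 2601. With 3 groups, many genes share a pattern by their group means alone.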

How the data were processed

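RNA-seq of whole knee joints was used as 9 deposited tables of raw counts, 1 per library, each listing Ensembl IDs. The submitters' processing notes name HISAT2, HTSeq, DESeq2 and the mm10 build. Versions, annotation release, strand setting and read filters are not stated in the sources used here. Reads that HTSeq listed under no gene (7.29 to 9.25%) or as ambiguous (5.72 to 6.65%) entered no library size and no test. GENCODE M21 (GRCm38) held 53274 of the 53379 IDs. Libraries of 1 group differed by more than counting noise (chi-square per degree of freedom 3.94 to 8.67), so all 9 were kept.

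Counts of the 9 libraries entered 1 quasi-likelihood fit (edgeR 4.0.16, R 4.3.3) with a group factor, TMM factors and filterByExpr (minimum count 10), which kept 17478 genes. Tests were two-sided, and adjusted p-values are Benjamini-Hochberg values over all of these genes, called under 0.05. A standard error is the size of the log2 fold change divided by the square root of F, and 95% intervals use the t quantiles of the fit. CPM per kb divides CPM by the union of exons. The fit was tested on simulated data. A number in brackets after a gene name is its log2 fold change in the comparison named.

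The genes, lists and tests were chosen with earlier results of these data known. Genes named are the 7, at most 4 of each list and comparison (ranked by size of change, called genes only), the 3 most similar to each of the 7, and Acta1, Col2a1, Ibsp and Cd3e as tissue markers, while 2 further genes of the rule are not reported here; Acan, Spi1, Sox4 and Bglap with their levels, and others marked so, were chosen after their values were seen. Alternatives were other scalings, DESeq2 1.42.0, no filter, only the groups compared, a replicate block and leaving out each library.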

Additional observations from a re-analysis of the deposited data

How the results depend on the processing

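Over 7 alternatives that kept all libraries (median-of-ratios factors, library size only, DESeq2, no filter, only the 2 groups compared, a replicate block, and scaling without muscle, mitochondrial and haemoglobin genes), each of the 7 genes kept its side of the threshold in each comparison, and those called kept their direction. Leaving out 1 library changed the call of 2 genes, each in 1 comparison. Sox9 in PC2 against Luc ranged from 0.17 to 0.22 (adjusted p 0.0165 to 0.0535) and lost its call without Luc replicate 3. The number of the 7 genes called there ranged from 1 to 2, and in PC2 against Non surgery from 6 to 7. Runx3 in PC2 against Non surgery ranged from -0.18 to -0.069 (adjusted p 0.0492 to 0.471) and passed without Non surgery replicate 3. The cause of these changes was not tested.

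With plain library sizes in place of TMM, the median log2 fold change of all genes in Luc against Non surgery was 0.19 instead of 0.025. The calls there were 7754 higher and 3304 lower, against 5431 and 4848 with TMM, and in PC2 against Non surgery 7607 and 3761, against 5505 and 5447. Runx3 then had the other sign in both, at 0.14 and 0.044, without a call. Sox6 in Luc against Non surgery still fell, by 0.57, and 52 of 60 list counts stayed within 1.5 times. With the replicate block, 2 of the 7 genes were called in PC2 against Luc, with Sox9 at an adjusted p of 0.00744, and 6192 genes in all against 6058 without it. The block changed no call of the 7 genes. Deviations of same-numbered libraries correlated at r of -0.041 to 0.078, and those of differently numbered ones at -0.091 to 0.098. No pairing by number was seen, which does not exclude one. Every p-value rests on technical repeats of 1 pool per group. Depth limits genes with few counts, among them Sox11, Sox10, Sox8, Barx1, Epyc, Cd8b1, Gzma and the antisense RNAs.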
